A study of Mus musculus with 24 samples.

Results

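The response of wild-type, mock-transduced mouse primary keratinocytes to GW0742, a synthetic agonist of the nuclear receptor PPAR-beta (also called PPAR-delta, the product of Ppard), was followed across all genes. The arrays were chosen by their titles: 3 arrays of wild-type cells given GW0742 and 3 of wild-type cells given DMSO, the vehicle, neither set carrying the hRAS virus. These are 6 of the 24 arrays of the series. All cells were primary keratinocytes of strain C57/BL6, and no animal age was used here. The treated group was wild-type, hRAS mock transduced and given 1 uM GW0742 for 24 hours, and its comparator was wild-type, hRAS mock transduced and given DMSO. Further effects of the same ligand are set beside it. In Ppar-beta null, mock-transduced cells GW0742 was compared with DMSO (3 arrays each), and in wild-type cells transduced with an Hras virus for 48 hours the same comparison was made (3 arrays each). Total RNA was hybridised to Affymetrix Mouse Gene 1.0 ST arrays, and the deposited values are log2 expression after RMA. The labels do not say whether the 3 arrays of a group came from separate animals or cultures. The spread behind each p-value is that within groups, pooled over all 8 groups of the 24 arrays, and it may be technical.

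PPAR-beta is a ligand-activated transcription factor that pairs with a retinoid X receptor on direct-repeat elements near its targets. It is known in many tissues for genes that move fatty acids into the mitochondrion and oxidise them there, and for Angptl4 and Pdk4, which limit the release of fatty acids from circulating lipoproteins and the entry of pyruvate into the citric acid cycle. In epidermis it has been studied for keratinocyte differentiation, growth and inflammation. Cholesterol synthesis, described below as a separate group, is known to be run by the SREBP transcription factors, which Insig proteins hold back in the endoplasmic reticulum when sterols are plentiful.

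The median log2 value of the 6 arrays lay between 7.463 and 7.511. Pairs of arrays within the GW0742 group and within the DMSO group correlated at 0.9981 or above over all genes, and pairs across the groups at 0.9963 to 0.9972. The label was checked against 10 keratinocyte markers, whose mean levels in DMSO lay between 12.21 and 14.25 on the log2 scale, against 7.46 to 7.51 for the median gene of an array. None of the 10 passed the test, and their median difference was -0.01. Mean levels in DMSO were 5.28 to 8.89 for endothelial markers and 4.72 to 9.83 for leukocyte markers. The 12 melanocyte markers had mean levels from 7.46 to 12.64 in DMSO, so the lowest of them lay within those ranges. Each of the 12 had a negative difference, with a median of -0.14 and none past the test, and their summed linear level was 15380 to 15990 with GW0742 and 16980 to 17940 with DMSO. Fibroblast markers had mean levels from 5.07 to 13.22 in DMSO, the highest within the range of the keratinocyte markers. Their differences were negative in 11 of 13, with a median of -0.06 and none past the test. Their summed levels overlapped, at 18580 to 20150 with GW0742 against 19640 to 21370 with DMSO. The part of these cells in any result was not tested. In bulk RNA, fewer cells of a type and less RNA per cell cannot be told apart. Precision is limited by having 3 arrays per group.

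Across 19937 genes, 250 were higher with GW0742 (1.25%) and 320 were lower (1.61%) at a Benjamini-Hochberg adjusted p of 0.05 in limma. The median difference over all genes was 0.004 on the log2 scale, with the 5th percentile at -0.19 and the 95th at 0.19. The rises were the larger changes: 67 genes were up by 1.5-fold or more (0.336%) against 32 down (0.161%), and 20 were up by 2-fold or more (0.100%) against 4 down (0.0201%). All 250 rises had their 3 GW0742 arrays above the 3 DMSO arrays, as did 11.6% of all genes, and 319 of the 320 falls had them below, as did 13.3% of all genes. Arrays apart are therefore a trait of nearly every called gene. Where this is stated below for a called gene, it describes the values and adds no support to the call. Just inside the threshold lay Elk4 at -0.22 ± 0.06 (adjusted p = 0.0498), and just outside it Mab21l1 at -0.31 ± 0.08 (adjusted p = 0.0502). Fewer genes passed when any 1 of the 6 arrays was left out, which also makes a group smaller and the test weaker. Without GW0742 arrays 1, 2 and 3 the 570 calls (2.86%) became 315, 401 and 357. Without DMSO arrays 1, 2 and 3 they became 393, 288 and 366. All 570 kept their sign in each of these runs. The rises became 147 without DMSO array 2. The falls became 131 and 188 without GW0742 arrays 1 and 3, and 205, 141 and 172 without DMSO arrays 1, 2 and 3. Below, a gene is said to have risen or fallen only if it passed with all arrays. Unless a loss is named, a gene described by name also passed when each of the 6 arrays was left out in turn. Counts of lists are of members that passed with all arrays, beside 1.25% higher and 1.61% lower among all genes. The lists were chosen with earlier results of these data known, so these shares describe the members and do not test the lists. Some counted members lost the call in such runs, among them Dbi, Cidea, Pgk1, Clca2, Dkk3 and Smad6.

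**Figure D1:**
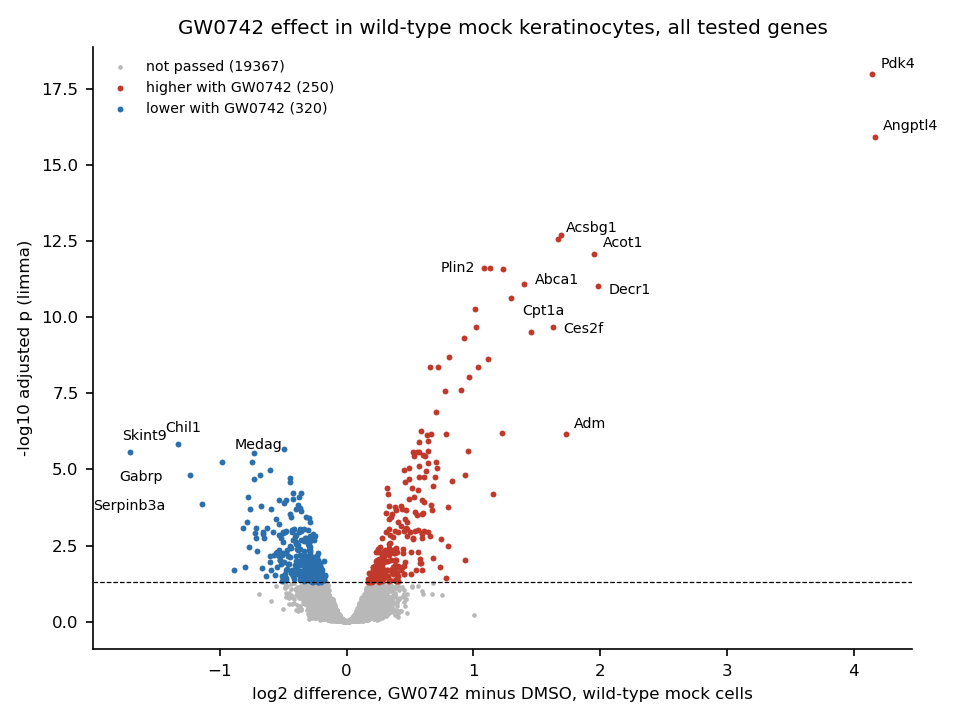
Each point is 1 of 19937 genes, with its log2 difference (GW0742 minus DMSO, wild-type mock cells) on the horizontal axis and -log10 of limma's adjusted p on the vertical axis. The 250 rises are red, the 320 falls blue, and the dashed line marks the threshold; Pdk4 and Angptl4 stand apart at differences above 4.

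The largest changes were those of Angptl4 and Pdk4. Angptl4, a secreted inhibitor of lipoprotein lipase, had log2 levels of 11.66, 11.62 and 11.67 with GW0742, against 7.50, 7.52 and 7.44 with DMSO. The difference of 4.17 ± 0.11 is an 18.0-fold rise (95% interval 15.4 to 21.0, adjusted p = 1.18e-16). Pdk4 is the kinase that switches off the pyruvate dehydrogenase complex, and it stood at 10.99, 10.93 and 10.90 with GW0742 and at 6.74, 6.78 and 6.87 with DMSO. Its rise of 4.14 ± 0.08 was 17.7-fold (95% interval 15.7 to 19.9, adjusted p = 1.06e-18). For both genes the arrays of a group lay within a narrow band and the bands were far apart. Other genes of their pathways are set beside 1.25% higher and 1.61% lower among all genes. Of 14 genes of pyruvate use 1 was higher, Pdk4, and 1 lower, the pyruvate carrier subunit Mpc1 (-0.31), whose call was lost without GW0742 array 1 (adjusted p = 0.0957) or DMSO array 1 (0.0623), 2 (0.0612) or 3 (0.0509). Its sister kinases Pdk1 (0.01) and Pdk3 (-0.01) did not pass, nor did Pdk2 (-0.28 ± 0.09, adjusted p = 0.14). Of 8 genes around lipoprotein lipase, Angptl4 alone passed, while Lpl itself differed by 0.22 ± 0.11 (adjusted p = 0.38).

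**Figure D2:**
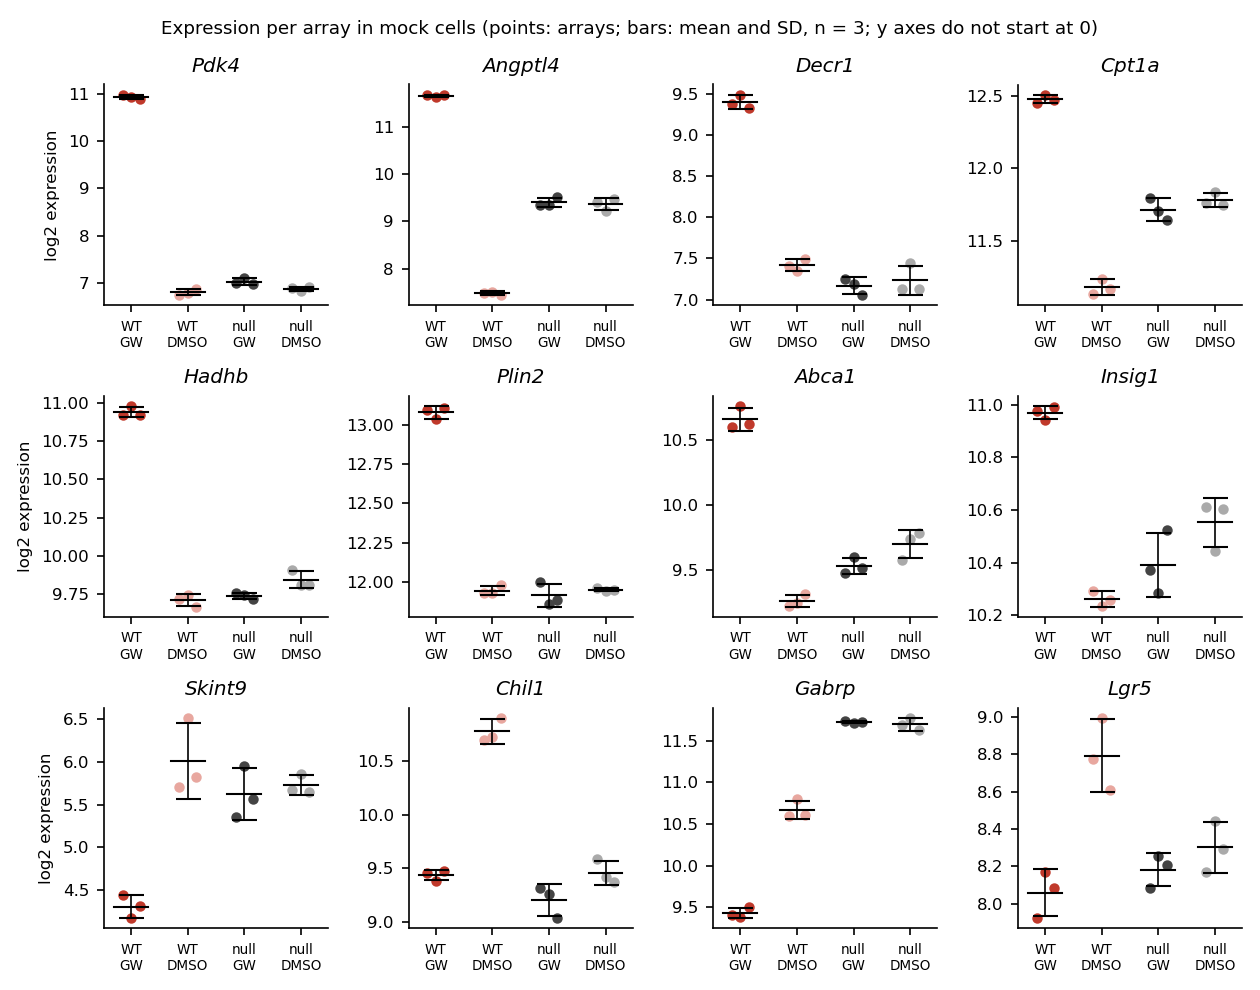
Log2 expression of 12 genes in each array of wild-type mock cells with GW0742 and DMSO and of null mock cells with GW0742 and DMSO. Points are arrays and bars are the mean ± SD (n = 3). In wild-type cells the GW0742 and DMSO points do not overlap for any of the 12 genes. The same held for nearly all called genes and for 24.8% of all genes.

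The genes of the shuttle that carries fatty acids into mitochondria rose together. Of 7 measured members of the carnitine system 3 were higher and 0 lower, against 1.25% higher among all genes, and the list's median difference was 0.24 against 0.004. Cpt1a, which makes acylcarnitine at the outer membrane and is regarded as the controlled step, stood at 12.45, 12.51 and 12.47 with GW0742, against 11.13, 11.24 and 11.17 with DMSO. It rose by 1.30 ± 0.07, or 2.46-fold (adjusted p = 2.34e-11). Slc25a20, the carrier across the inner membrane, stood at 10.05, 10.11 and 10.16 with GW0742 and at 9.22, 9.36 and 9.39 with DMSO, a rise of 0.78 ± 0.06 (adjusted p = 2.59e-08). Cpt2, which turns acylcarnitine back to acyl-CoA inside, stood at 11.27, 11.31 and 11.26 with GW0742 and at 10.56, 10.45 and 10.48 with DMSO. Its rise was 0.79 ± 0.07 (adjusted p = 6.82e-07), and for none of these genes did the groups overlap. The plasma membrane carnitine transporter Slc22a5 (0.10 ± 0.12), the peroxisomal transferase Crot (0.24 ± 0.09) and Crat (-0.05) did not pass. Genes of carnitine synthesis moved in both directions. Aldh9a1, a dehydrogenase of carnitine synthesis, rose by 1.01 ± 0.06 with levels of 11.37, 11.40 and 11.39 against 10.32, 10.43 and 10.38 with DMSO. Bbox1, the last enzyme of that route, fell by 0.77 on the log2 scale (± 0.15, adjusted p = 0.00344), with 5.50, 5.74 and 5.79 with GW0742 against 6.46, 6.44 and 6.45 with DMSO.

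Within the mitochondrial oxidation list 11 of 20 measured members were higher and 1 lower, and the median difference was 0.26. The genes that moved most were those for long chains and for double bonds. Decr1, the 2,4-dienoyl-CoA reductase needed for unsaturated fatty acids, stood at 9.38, 9.49 and 9.33 with GW0742 and at 7.41, 7.35 and 7.50 with DMSO, a rise of 1.98 ± 0.10 or 3.95-fold (adjusted p = 9.46e-12). Eci2, an enoyl-CoA isomerase for double bonds, stood at 10.43, 10.49 and 10.52 with GW0742 and at 9.02, 9.04 and 9.03 with DMSO, a rise of 1.45 ± 0.09. The trifunctional protein, which carries out the last 3 steps of the long-chain cycle, rose in both subunits. Hadha stood at 12.43, 12.43 and 12.48 with GW0742 and at 11.38, 11.38 and 11.33 with DMSO (1.08 ± 0.05, adjusted p = 2.42e-12). Hadhb stood at 10.92, 10.98 and 10.92 with GW0742 and at 9.72, 9.74 and 9.67 with DMSO (1.23 ± 0.06, adjusted p = 2.69e-12). Acaa2, a mitochondrial thiolase, rose by 0.90 ± 0.07 (adjusted p = 2.5e-08). Electrons leave the acyl-CoA dehydrogenases through the flavoprotein ETF and its dehydrogenase. All of these genes rose, Etfb by 0.66 ± 0.06, Etfdh by 0.60 ± 0.09 and Etfa by 0.45 ± 0.09, as did the very-long-chain dehydrogenase Acadvl by 0.38 ± 0.07 and the hydroxyacyl-CoA dehydrogenase Hadh by 0.25 ± 0.05. Acadl passed at 0.27 ± 0.06 but not without GW0742 array 2 (adjusted p = 0.124), GW0742 array 3 (0.053), DMSO array 2 (0.064) or DMSO array 3 (0.115).

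Several enzymes of the cycle did not pass. The medium-chain dehydrogenase Acadm differed by -0.16 ± 0.06 (adjusted p = 0.24), the short-chain Acads by -0.08, the hydratase Echs1 by -0.16 and the isomerase Eci1 by -0.06. Acadsb, the dehydrogenase for short branched chains, fell by 0.52 on the log2 scale (± 0.09, adjusted p = 0.00182), with 9.07, 9.11 and 9.10 with GW0742 against 9.57, 9.66 and 9.60 with DMSO. Oxct1, which activates ketone bodies for use as fuel, fell by 0.45 (± 0.06, adjusted p = 2.53e-05), at 10.28, 10.32 and 10.28 with GW0742 against 10.72, 10.77 and 10.74 with DMSO. Peroxisomal oxidation gave 1 rise among 16 members, that of the fatty acid importer Abcd3 (0.36 ± 0.05, adjusted p = 0.000287). The well-known peroxisomal genes Ech1 (0.25, adjusted p = 0.13), Pex11a (0.14) and Cat (0.01) did not pass. Of 23 respiratory chain genes 0 passed in either direction, against 2.86% of all genes, so 0 in a list of this size would not stand out.

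**Figure D3:**
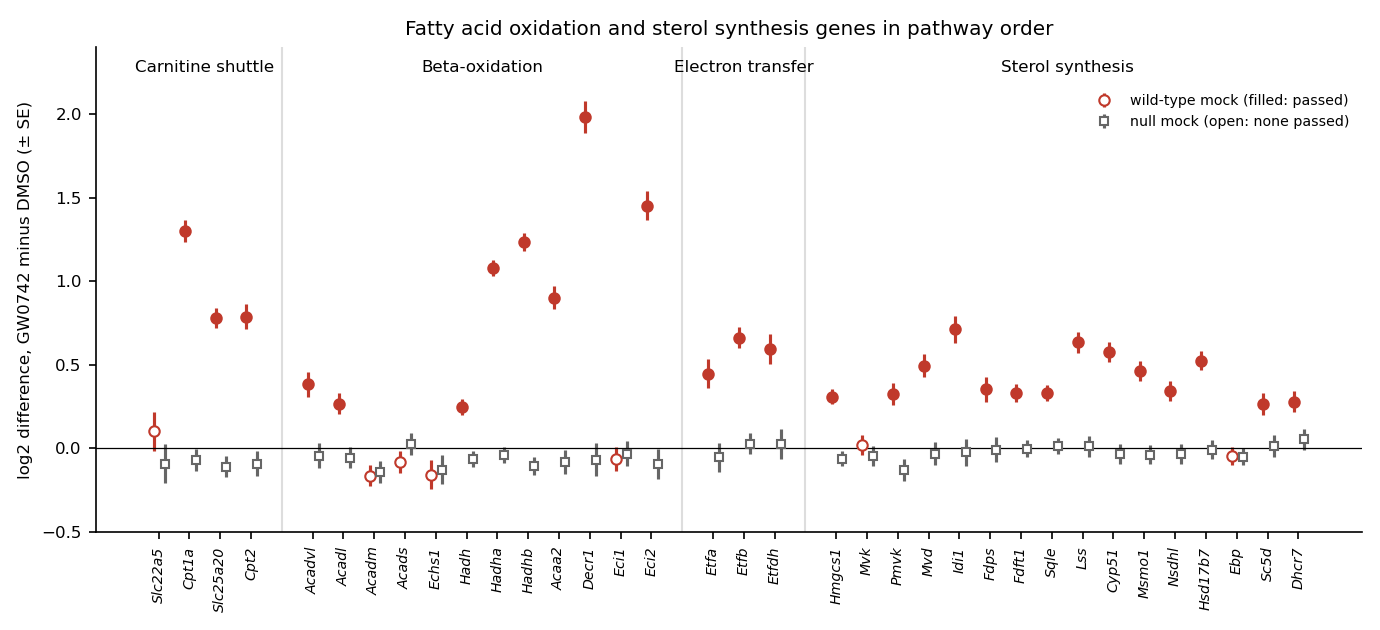
Log2 difference ± SE (GW0742 minus DMSO) of genes in the order of their steps, with wild-type mock cells as red circles (filled where the gene passed) and null mock cells as grey squares. In wild-type cells the highest point of the oxidation genes is Decr1 at 1.98 and that of the sterol enzymes Idi1 at 0.71, and the null squares lie near 0.

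Hadha and Hadhb are read outward from starts 272 bases apart on chromosome 5, on opposite strands, which is why the stretch before Hadhb is shown. It comes from RefSeq on GRCm38.p6 (chr5:30155003-30155252, plus strand) and reads away from Hadha towards Hadhb. Capitals mark each match to the GC box GGGCGG, searched on both strands of the 250 bases before a start.
Hadhb: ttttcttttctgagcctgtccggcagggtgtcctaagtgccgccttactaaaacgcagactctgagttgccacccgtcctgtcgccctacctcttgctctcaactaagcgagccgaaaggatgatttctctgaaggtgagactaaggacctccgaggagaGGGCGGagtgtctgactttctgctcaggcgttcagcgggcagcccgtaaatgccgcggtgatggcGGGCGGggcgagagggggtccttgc
The 2 genes moved by nearly equal amounts across this stretch, 1.08 ± 0.05 and 1.23 ± 0.06. A GC box was found in 32.7% of all promoters in the table, in 45.6% of those of tested genes and in 55.5% of those of genes that rose, so such a box is common.

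Genes that make, split and store acyl-CoA also contained some of the largest rises. Acsbg1, an acyl-CoA synthetase, stood at 11.28, 11.19 and 11.25 with GW0742 and at 9.47, 9.65 and 9.59 with DMSO, a rise of 1.66 ± 0.07 (adjusted p = 2.64e-13). Of 16 genes of fatty acid uptake and activation 3 were higher and 0 lower, with a median of 0.13. The synthetase Acsl5 (0.20, adjusted p = 0.15) and the fatty acid receptor Cd36 (0.14) did not pass. Fabp4, a fatty acid binding protein, rose by 0.56 ± 0.11 (adjusted p = 0.0053), with 7.47, 7.50 and 7.55 with GW0742 against 6.86, 6.94 and 7.03 with DMSO. It was the single passing gene of 7 adipocyte markers. Fabp5, the abundant form in keratinocytes, differed by 0.14 ± 0.07 and did not pass.

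Acyl-CoA thioesterases, which release free fatty acid again, had 4 of 15 members higher. Acot1, the cytosolic form, stood at 9.68, 9.59 and 9.68 with GW0742 and at 7.66, 7.70 and 7.73 with DMSO (1.95 ± 0.08, or 3.87-fold, adjusted p = 8.19e-13). Acot2, the mitochondrial form, stood at 12.18, 12.21 and 12.30 with GW0742 and at 11.42, 11.54 and 11.23 with DMSO (0.83 ± 0.10, adjusted p = 2.45e-05). The genes are near-identical neighbours, so the split of signal between their probe sets is uncertain. The other passing members were Acot4 at 0.58 ± 0.13, lost without GW0742 array 1 (adjusted p = 0.0876), GW0742 array 3 (0.0591) or DMSO array 1 (0.0677), and Acot7 at 0.39 ± 0.08, lost without GW0742 array 1 (0.0725) or DMSO array 2 (0.0532). Of 24 lipid droplet genes 3 were higher, with a median of 0.06. Plin2, the main coat protein of droplets outside fat tissue, stood at 13.09, 13.03 and 13.11 with GW0742 and at 11.93, 11.93 and 11.98 with DMSO (1.13 ± 0.05, adjusted p = 2.42e-12). Hilpda, an inhibitor of triglyceride lipase, stood at 8.07, 8.11 and 8.04 with GW0742 and at 7.13, 7.31 and 7.35 with DMSO (0.81 ± 0.05, adjusted p = 2.07e-09). Both sets of arrays were clear of each other. Neither the lipase Pnpla2 (-0.01) nor the triglyceride synthase Dgat1 (0.01) moved past the test.

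Receptor complexes of this family bind direct repeats spaced by 1 base, so the 250 bases before each start were searched for AGGTCANAGGTCA on both strands with at most 2 mismatches. The windows below, from RefSeq on GRCm38.p6 and each read in the direction of its gene, are shown because they belong to lipid genes that rose or passed. Capitals mark the match.
Plin2 (chr4:86670248-86670308, minus strand): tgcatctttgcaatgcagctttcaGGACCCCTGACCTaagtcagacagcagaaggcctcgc
Aldh9a1 (chr1:167349823-167349883, plus strand): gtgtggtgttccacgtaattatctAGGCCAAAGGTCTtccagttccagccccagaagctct
Etfa (chr9:55512284-55512344, minus strand): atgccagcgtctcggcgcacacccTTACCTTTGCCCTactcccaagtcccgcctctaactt
Acot4 (chr12:84038342-84038378, plus strand): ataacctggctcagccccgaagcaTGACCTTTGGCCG
Elovl1 (chr4:118429582-118429642, plus strand): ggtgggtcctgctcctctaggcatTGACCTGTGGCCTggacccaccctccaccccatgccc
The Elovl1 window had 1 mismatch to the searched letters and the other 4 had 2 each. Such a match stood in 8 of 254 promoters of genes that rose (3.15%), in 8 of 312 promoters of genes that fell (2.56%), and in 2.81% of the promoters of tested genes, so the shares were much alike. The searched promoters covered 209 of the genes that rose, 246 of those that fell and 15561 of those tested. Angptl4 and Decr1 had no promoter among them and were not searched. Pdk4 and Cpt1a had no match closer than 4 mismatches in this short window. A match is a description of letters and says nothing of binding.

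Cholesterol synthesis rose along nearly its whole length. Of 17 measured enzymes 14 were higher and 0 lower (82.4%, against 1.25% of all genes), with a median of 0.33, and 11 passed whichever array was left out. The largest of them, Idi1, stayed below the largest rises among the oxidation genes. Hmgcs1, the entry enzyme, stood at 11.59, 11.61 and 11.59 with GW0742 and at 11.33, 11.22 and 11.30 with DMSO, a rise of 0.31 ± 0.05. Idi1, which isomerises the isoprenoid unit, stood at 11.28, 11.22 and 11.32 with GW0742 and at 10.67, 10.44 and 10.58 with DMSO (0.71 ± 0.08, adjusted p = 8.79e-06). Mvd and Pmvk, earlier on the mevalonate branch, rose by 0.49 ± 0.07 and 0.33 ± 0.06. At the squalene steps Fdft1 and Sqle each rose by 0.33 ± 0.05, and Lss, which closes the ring to lanosterol, stood at 11.24, 11.21 and 11.26 with GW0742 and at 10.62, 10.56 and 10.64 with DMSO (0.63 ± 0.06, adjusted p = 7.67e-07). Among the demethylation steps, Cyp51 stood at 10.65, 10.63 and 10.75 with GW0742 and at 10.18, 9.98 and 10.14 with DMSO (0.57 ± 0.06, adjusted p = 2.59e-06). Msmo1 rose by 0.46 ± 0.06, Nsdhl by 0.34 ± 0.06 and Hsd17b7 by 0.53 ± 0.05. The 3 enzymes that did not pass were Mvk (0.02 ± 0.06), Ebp (-0.05 ± 0.05) and Tm7sf2 (0.09 ± 0.10).

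The regulators of this pathway gave a mixed picture. Insig1, the sterol-regulated brake on SREBP release, stood at 10.98, 10.94 and 10.99 with GW0742 and at 10.29, 10.23 and 10.26 with DMSO, a rise of 0.71 ± 0.06 (adjusted p = 1.31e-07), and the sterol carrier Stard4 rose by 0.34 ± 0.06. Srebf1 differed by 0.15 (adjusted p = 0.24). Srebf2 passed narrowly at 0.17, but lost the call whichever of the 6 arrays was left out, with adjusted p-values up to 0.18. Genes that make fatty acids had 7 of 20 members higher, with a median of 0.18. The desaturase Scd1 stood at 12.70, 12.66 and 12.76 with GW0742 and at 12.16, 12.07 and 12.12 with DMSO (0.59 ± 0.05, adjusted p = 5.56e-07), and the elongases Elovl6 and Elovl1 rose by 0.46 ± 0.07 and 0.33 ± 0.04. The count of 7 became 3 without GW0742 array 2, 4 without GW0742 array 3 and 3 without DMSO array 2. Fatty acid synthase itself, Fasn, passed at 0.25 ± 0.05 and was lost without GW0742 array 2 (adjusted p = 0.0531) or DMSO array 2 (0.066).

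Of 8 genes of the sterol sensor LXR and cholesterol efflux 2 were higher and 1 lower, with a median of -0.08 and 5 of 8 differences negative. Abca1, which exports cholesterol to lipoproteins, stood at 10.60, 10.77 and 10.62 with GW0742 and at 9.23, 9.25 and 9.32 with DMSO, a rise of 1.40 ± 0.07 or 2.64-fold (adjusted p = 8.38e-12). Lpcat3, which puts polyunsaturated chains into phospholipids, stood at 12.22, 12.22 and 12.27 with GW0742 and at 11.52, 11.57 and 11.46 with DMSO (0.72 ± 0.05, adjusted p = 4.45e-09). The sterol exporter Abcg1 (-0.21 ± 0.08, adjusted p = 0.23) and the ubiquitin ligase Mylip (-0.23) had negative differences and did not pass. Smpdl3a, a phosphodiesterase and the called fall (-0.33, adjusted p = 0.0384), lost its call whichever of the 6 arrays was left out, with adjusted p-values from 0.0666 to 0.167.

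Sterol enzyme promoters were searched for letters known from SREBP-dependent genes. The core TCACNCCAC was found on either strand in 1.05% of all promoters and in 0.787% of those of genes that rose, Hmgcs1 among them. The inverted or direct CCAAT box, a partner site in many sterol genes, stood in 11 of 14 promoters of called sterol enzymes (78.6%, several from the same gene), in 39% of promoters of all genes that rose, in 35.9% of those of genes that fell and in 34.6% of those of tested genes. The GC box stood in the same share of sterol promoters, 78.6%. The windows below are read in the direction of the gene, with the match in capitals, and show that the box occurs in both orientations.
Hmgcs1 (chr13:119690190-119690246, plus strand, TCACNCCAC): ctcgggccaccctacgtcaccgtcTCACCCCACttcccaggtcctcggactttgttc
Idi1 (chr13:8885568-8885605, plus strand, CCAAT): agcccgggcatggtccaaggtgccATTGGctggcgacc
Lss (chr10:76531519-76531571, plus strand, CCAAT): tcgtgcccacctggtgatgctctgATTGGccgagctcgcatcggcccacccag
Cyp51 (chr5:4104698-4104750, minus strand, CCAAT): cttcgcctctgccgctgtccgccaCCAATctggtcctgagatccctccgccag
Msmo1 (chr8:64733605-64733657, minus strand, CCAAT): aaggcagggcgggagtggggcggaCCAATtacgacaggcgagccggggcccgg
Hsd17b7 (chr1:169969206-169969241, minus strand, CCAAT): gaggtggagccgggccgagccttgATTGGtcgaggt
In Idi1, Lss and Hsd17b7 the box lies on the opposite strand and is read as ATTGG. These shares describe letters in a short window, without a test.

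Carboxylesterases, which cleave esters of lipids and drugs, gave 3 rises among 17 members, and all were neighbours on chromosome 8. Ces2f stood at 10.54, 10.46 and 10.46 with GW0742 and at 8.81, 8.90 and 8.86 with DMSO (1.63 ± 0.10, or 3.09-fold, adjusted p = 2.04e-10). Ces2g stood at 12.32, 12.39 and 12.32 with GW0742 and at 11.29, 11.28 and 11.39 with DMSO (1.02 ± 0.06). Ces2e stood at 8.86, 8.62 and 8.79 with GW0742 and at 7.83, 7.73 and 7.84 with DMSO (0.96 ± 0.10, adjusted p = 2.56e-06). In each the groups were clearly apart, though close paralogs can share probe signal, so the size for each member is uncertain. The Ces1 genes did not pass. Of 16 retinoid genes, the reductases Dhrs3 (0.50 ± 0.08, adjusted p = 0.00114) and Rdh11 (0.35 ± 0.07) rose, while the retinoic acid binding proteins Crabp1 (-0.06) and Crabp2 (0.08) did not pass.

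Arachidonate release and use changed at several points. Of 17 measured genes of phospholipid breakdown and eicosanoid synthesis 4 were higher and 1 lower. Pla2g4d, a cytosolic phospholipase A2 of epithelia, stood at 8.11, 8.29 and 8.29 with GW0742 and at 7.23, 7.15 and 6.87 with DMSO (1.15 ± 0.15, adjusted p = 6.52e-05). Its neighbour Pla2g4f stood at 8.91, 8.92 and 8.85 with GW0742 and at 8.05, 8.14 and 8.26 with DMSO (0.74 ± 0.13, adjusted p = 0.00186), and Pla2g4a, the classical form, rose by 0.49 ± 0.06 (adjusted p = 8.79e-06). Ptgs2, the inducible cyclooxygenase, stood at 13.02, 13.01 and 13.08 with GW0742 and at 12.53, 12.62 and 12.63 with DMSO (0.44 ± 0.09, adjusted p = 0.00544). The lipoxygenase Alox12 went down, averaging 7.06 ± 0.06 with GW0742 and 7.69 ± 0.03 with DMSO (SD, n = 3 each), and fell by 0.63 on the log2 scale (± 0.10, adjusted p = 0.000825). The prostaglandin-degrading enzyme Hpgd differed by 0.52 ± 0.15 (adjusted p = 0.069).

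Adm, which encodes the vasodilator peptide adrenomedullin, was among the largest rises, at 10.56, 10.50 and 10.45 with GW0742 against 8.86, 8.81 and 8.66 with DMSO (1.73 ± 0.16, or 3.32-fold, adjusted p = 6.82e-07). The angiogenic factor Vegfa rose by 0.29 ± 0.06 (adjusted p = 0.00514). Among 28 genes of glycolysis and the hypoxia response, 5 were higher and 0 lower, with a median of 0.14. They included Bnip3, a mitochondrial protein of mitophagy (9.52, 9.61 and 9.67 with GW0742 against 9.03, 8.89 and 8.91 with DMSO, 0.66 ± 0.12), the lactate exporter Slc16a3 (0.48 ± 0.08) and the phosphofructokinase Pfkl (0.33 ± 0.06). Fbp2, which runs the phosphofructokinase step backwards, stood at 8.57, 8.09 and 8.41 with GW0742 and at 7.06, 7.23 and 7.10 with DMSO (1.23 ± 0.12, adjusted p = 6.43e-07). Other large rises were Deptor, an inhibitor of mTOR (1.12 ± 0.08), Gldc of the glycine cleavage system (1.03 ± 0.07) and the presynaptic scaffold gene Erc2 (0.97 ± 0.07).

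Fewer falls than rises were large. Skint9, of a family of immunoglobulin-like proteins of epidermis and thymus, stood at 4.44, 4.17 and 4.31 with GW0742 and at 5.70, 6.52 and 5.82 with DMSO. It fell by 1.70 on the log2 scale (± 0.18, adjusted p = 2.71e-06), and its levels lay near the low end of the array's range in both groups. All 7 measured Skint genes had a negative difference, with a median of -0.37, but the other members did not pass (Skint4 -0.44 ± 0.13, adjusted p = 0.087), and shared probes within this family are possible. Chil1, a secreted chitinase-like protein, stood at 9.46, 9.39 and 9.48 with GW0742 and at 10.70, 10.72 and 10.90 with DMSO, and fell by 1.33 (± 0.13, adjusted p = 1.49e-06). Gabrp, a GABA-A receptor subunit, stood at 9.41, 9.38 and 9.50 with GW0742 and at 10.60, 10.80 and 10.60 with DMSO, and fell by 1.23 (± 0.15, adjusted p = 1.51e-05). In each of these the lowest DMSO array lay above the highest GW0742 array by more than the spread within either group. Medag fell by 0.98 (± 0.11), at 6.30, 6.44 and 6.57 with GW0742 against 7.40, 7.46 and 7.40 with DMSO.

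Ion and sugar carriers fell in small number, 4 of 20 with 0 higher. Besides Gabrp they included the subunit Gabre (-0.53 ± 0.09, adjusted p = 0.00146) and the sodium-glucose carrier Slc5a1, at 9.71, 9.74 and 9.81 with GW0742 against 10.33, 10.32 and 10.29 with DMSO (-0.56 ± 0.09, adjusted p = 0.00041). Among 20 serpins 4 were lower, but the protease inhibitor Serpinb3a was the 1 member that passed whichever of the 6 arrays was left out, at 6.73, 6.78 and 6.82 with GW0742 against 7.76, 8.18 and 7.82 with DMSO (-1.14 ± 0.16, adjusted p = 0.000138). The count of 4 became 1 without GW0742 array 1 or 2 or DMSO array 1 or 3, and 2 without GW0742 array 3. Serpina9, outside that group of clade B genes, fell by 0.78 (± 0.10). Large falls elsewhere were those of the differentiation-linked gene Dapl1 (-0.82 ± 0.13), the semaphorin Sema3d (-0.76 ± 0.11), the sugar phosphate carrier Slc37a2 (-0.75 ± 0.08), the tubulin-binding protein Stmn2 (-0.73 ± 0.08) and the muscle ubiquitin ligase Fbxo32. Fbxo32, also called atrogin-1, stood at 8.58, 8.83 and 8.74 with GW0742 and at 9.41, 9.41 and 9.38 with DMSO, and fell by 0.68 (± 0.08, adjusted p = 1.48e-05).

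Signalling genes of the TGF-beta, BMP and Wnt pathways leaned down, with 25 of 30 differences negative and a median of -0.15 against 0.004 over all genes. Of the 30, 6 were lower and 1 higher. Lgr5, an R-spondin receptor known as a stem cell marker of the hair follicle, stood at 7.923, 8.172 and 8.085 with GW0742 and at 8.772, 8.995 and 8.609 with DMSO, and fell by 0.73 (± 0.09, adjusted p = 2.08e-05). Its relative Lgr4 fell by 0.44 (± 0.08), the ligand Wnt10a by 0.29 (± 0.05) and the BMP target Id2 by 0.37 (± 0.05, adjusted p = 0.000182). Follistatin, Fst, a secreted antagonist of activin, was the single rise, at 13.02, 13.06 and 13.01 with GW0742 against 12.36, 12.43 and 12.49 with DMSO (0.60 ± 0.06, adjusted p = 3.47e-06). For each of these 5 genes the arrays of the groups did not overlap, as for nearly all called genes and for 24.8% of all genes.

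Genes of the epidermal programme after 24 hours of ligand are set beside 1.25% higher and 1.61% lower among all genes. Of 20 keratins 1 was lower (5.0%) and 0 higher. It was Krt77, at 8.04, 8.05 and 8.10 with GW0742 against 8.53, 8.38 and 8.50 with DMSO (-0.40 ± 0.07, adjusted p = 0.0027). The basal pair Krt5 (0.02) and Krt14 (-0.02) and the suprabasal pair Krt1 (-0.08) and Krt10 (-0.11) did not pass. Of 36 cornified envelope genes 3 were higher (8.3%) and 2 lower (5.6%), with a median of 0.10. The rises, all in late cornified envelope genes that may share probes, were 0 without GW0742 array 3 or DMSO array 2 and 1 without any other of the 6. The falls were Flg2 and Rptn, and Rptn lost its call when GW0742 array 1 or 3 or any DMSO array was left out. The filaggrin relative Flg2 fell, with 7.67, 7.83 and 7.66 with GW0742 against 8.54, 8.33 and 8.66 with DMSO (-0.79 ± 0.12, adjusted p = 0.000535). Its chromosome neighbour Crnn, cornulin, fell by 0.72 (± 0.12, adjusted p = 0.00122). Of 23 barrier lipid genes, among them the lipid transporter Abca12 (0.14 ± 0.10) and the ceramide synthase Cers3 (0.14 ± 0.07), 0 passed. The 23 transcription factors and Notch pathway genes of differentiation also gave 0, with Klf4 at -0.10, Grhl3 at 0.12 and Notch1 at 0.04. With 2.86% of all genes passing, 0 calls in lists of this size would not stand out. A p that misses the threshold does not show that these levels were equal.

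Of 38 defence genes 3 were higher (7.9%, against 1.25% of all genes) and 2 lower (5.3%, against 1.61%). The chemokine Ccl2 stood at 9.64, 9.60 and 9.59 with GW0742 and at 9.11, 9.07 and 8.96 with DMSO (0.57 ± 0.07, adjusted p = 4.88e-05), and the alarm cytokine Il1a rose by 0.54 ± 0.09. Besides Chil1 the fall was in S100a7a, an S100 protein of inflamed skin (-0.53 ± 0.09, adjusted p = 0.000634). Il6, Tnf and the interferon-response list of 23 genes showed 0 calls. In that list 21 of 23 differences were negative, with a median of -0.10, and the median in null mock cells was -0.16. Among 32 adhesion genes 2 were higher, Gjb2 and Gjb6, and 1 when GW0742 array 1 or 3 or any DMSO array was left out, which ended the call of Gjb6. The gap junction gene Gjb2, connexin 26, stood at 11.78, 11.75 and 11.82 with GW0742 and at 11.00, 10.97 and 10.99 with DMSO (0.80 ± 0.15, adjusted p = 0.00331). Within each of these groups its arrays lay very close together, while its SE rests on the spread over all 8 groups. Of 34 cell cycle genes 1 was higher (2.9%, against 1.25% of all genes), with a list median of 0.10. It was the anaphase activator Cdc20 (0.34 ± 0.07, adjusted p = 0.00565). Arrest and apoptosis genes (21 measured) and uncoupling and redox genes (20 measured) had 0 calls, against 2.86% of all genes.

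The receptor genes themselves did not pass. Ppard stood at 11.29, 11.27 and 11.22 with GW0742 and at 11.12, 11.16 and 11.27 with DMSO (0.07 ± 0.06, adjusted p = 0.70), with overlapping arrays. Ppara (-0.02), Pparg (0.16) and Rxra (-0.09) did not pass either. Of 17 receptors and cofactors 1 was lower (5.9%, against 1.61% of all genes) and 0 higher. The call was Cited2, a transcriptional cofactor, which fell by 0.33 (± 0.06, adjusted p = 0.00172).

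**Figure D4:**
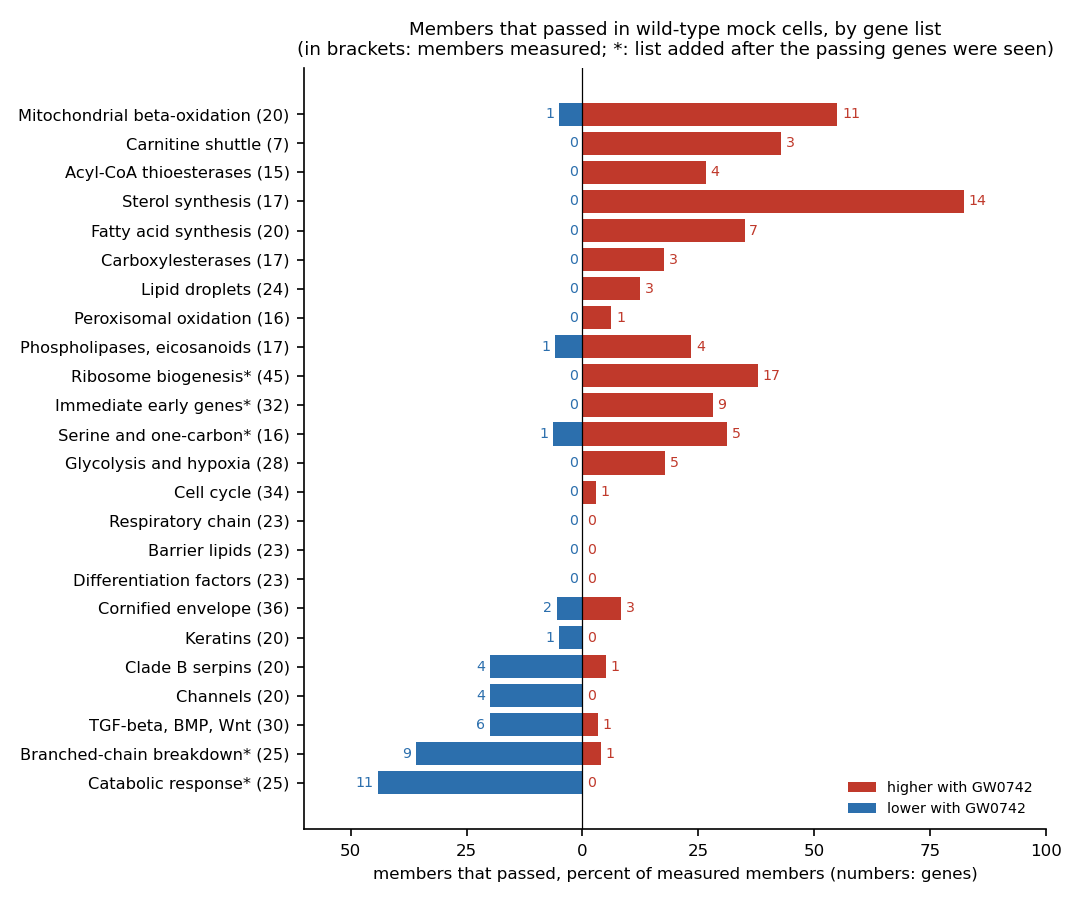
Percent of the measured members of each gene list that were higher (red, to the right) or lower (blue, to the left) with GW0742 in wild-type mock cells; an asterisk marks lists chosen after the called genes had been seen. Sterol synthesis stands highest at 82.4%, against 1.25% higher and 1.61% lower among all genes. Lists without an asterisk were chosen with earlier results of these data known, so all shares are descriptions and no test of a list.

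In null mock cells the ligand gave 0 calls of 19937 genes (0%) in limma, with 1097 genes at an unadjusted p under 0.05 against 2613 in wild-type mock cells, and the lowest adjusted p was 0.0616. The genes that passed in wild-type cells were centred near 0 there: the 250 rises had a median of 0.39 in wild-type and -0.02 in null cells. For the 320 falls the medians were -0.33 in wild-type cells and -0.02 in null cells. The wild-type medians are set by the selection, since the genes had to pass in those arrays, while the null medians are not. Part of this contrast is therefore built in. The difference between the effects (null minus wild-type) was tested for every gene and passed for 169 (0.848%). Of the 250 rises 110 had a passing negative difference, and of the 320 falls 52 had a passing positive one. The wild-type effect that picked these genes is part of the difference, so selection favours these signs. For the remaining called genes the difference did not pass. Positive differences, 57 over all genes (0.286%), were 27 and 36 without wild-type GW0742 arrays 1 and 3, 32 and 36 without wild-type DMSO arrays 2 and 3, and 34 and 35 without null GW0742 arrays 2 and 3. They were more under other settings, 125 with only the arrays compared, 112 with trend and robust moderation, 106 without dim genes and 92 without the null Hras GW0742 group.

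Angptl4 and Pdk4 showed the contrast most plainly. In null mock cells Angptl4 stood at 9.35, 9.35 and 9.51 with GW0742 and at 9.41, 9.23 and 9.48 with DMSO, a difference of 0.03 with a 95% interval of -0.19 to 0.25. The null levels therefore overlapped between the treatments, and they lay between the wild-type GW0742 and wild-type DMSO levels. Mean Angptl4 in DMSO was 9.37 in null mock cells against 7.48 in wild-type mock cells. The difference of effects, null minus wild-type, was -4.14 ± 0.15 (adjusted p = 1.42e-13). Pdk4 in null mock cells stood at 6.98, 7.10 and 6.98 with GW0742 and at 6.88, 6.82 and 6.90 with DMSO, a difference of 0.16 with an interval of -0.01 to 0.33, and the null minus wild-type difference was -3.99 ± 0.12 (adjusted p = 2.56e-15). Cpt1a stood at 11.79, 11.70 and 11.64 with GW0742 and at 11.76, 11.83 and 11.75 with DMSO in null mock cells.

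By group, the passing null minus wild-type differences were negative in 11 of 17 sterol enzymes, 8 of 20 mitochondrial oxidation genes and 3 of 7 carnitine genes, against 0.562% negative among all genes. For Cyp51 the difference was -0.61 ± 0.08 (adjusted p = 0.000271), for Idi1 -0.74 ± 0.11 (adjusted p = 0.000954) and for Insig1 -0.87 ± 0.09 (adjusted p = 1.92e-06). Among the falls, the null minus wild-type difference was 1.60 ± 0.25 for Skint9 (adjusted p = 0.00107), 1.26 ± 0.21 for Gabrp (adjusted p = 0.00176) and 1.08 ± 0.19 for Chil1 (adjusted p = 0.00332). Gabrp in null mock cells stood at 11.73, 11.71 and 11.72 with GW0742 and at 11.69, 11.78 and 11.62 with DMSO, all above every wild-type mock array. Chil1 in null mock cells stood at 9.32, 9.27 and 9.04 with GW0742 and at 9.58, 9.42 and 9.37 with DMSO, levels near those of wild-type cells with the ligand. Krt77 differed by -0.32 in null mock cells against -0.40 in wild-type mock cells, and its difference of effects did not pass. The null cells still gave Ppard values between 10.60 and 10.80, and as the sources used here do not give the deleted part of the gene, this probe set does not test the genotype label.

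**Figure D5:**
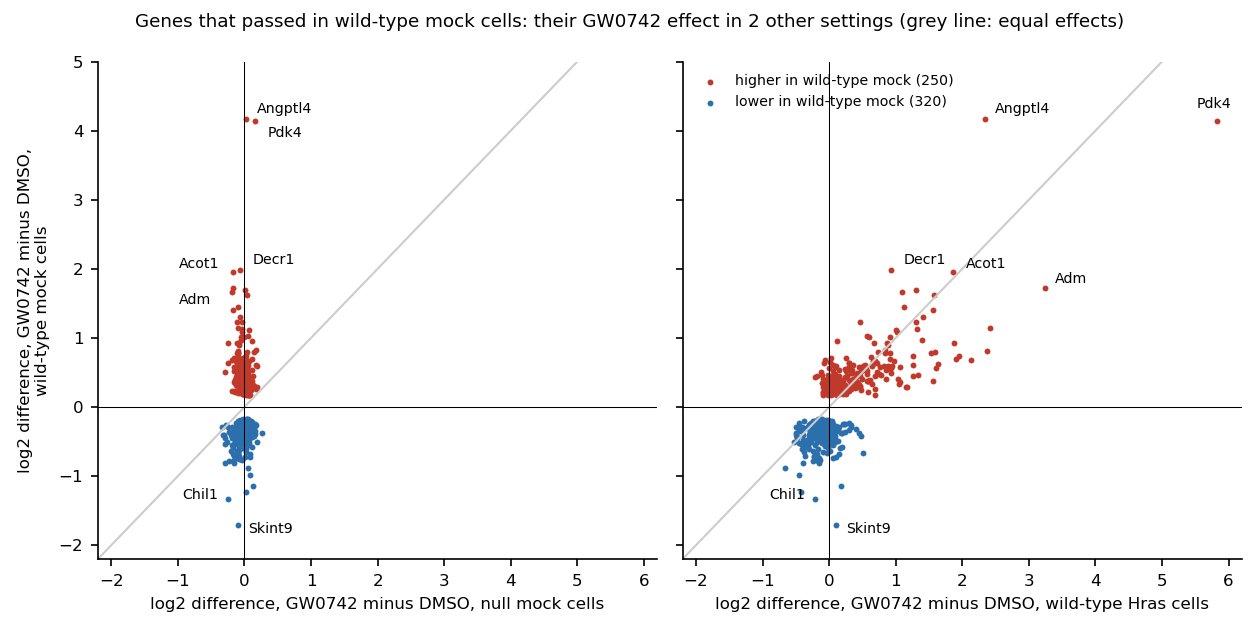
GW0742 effect (log2 difference, GW0742 minus DMSO) of the 570 genes that passed in wild-type mock cells, on the vertical axis in wild-type mock cells and on the horizontal axis in null mock cells (left) or wild-type Hras cells (right). In null cells the points stand in a narrow column around 0, and in Hras cells they spread along and to both sides of the line of equal effects. The genes were selected by the effect on the vertical axis, so values there are away from 0 by choice.

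In wild-type Hras cells the ligand gave 1219 calls (6.11%), 890 higher (4.46%) and 329 lower (1.65%). The difference of the effects, Hras minus mock, passed for 492 genes (2.47%). Of the 250 rises of mock cells, 24 had a larger effect in Hras cells and 40 a smaller one, and of the 320 falls 58 had a less negative effect and 0 a more negative one. These genes were picked by the mock effect, which enters the difference with a minus sign. That selection alone favours smaller effects in Hras cells, so these shares do not weigh the settings against each other. The count of 492 became 311 without wild-type mock GW0742 array 1, 323 without wild-type mock DMSO array 2 and 286 without wild-type Hras GW0742 array 3. Negative differences, 84 over all genes (0.421%), became 37 without mock DMSO array 2, 42 without Hras GW0742 array 3, 46, 52 and 49 without mock GW0742 arrays 1, 2 and 3, and 54 without mock DMSO array 3. They were 55 with arrays centred, 127 without dim genes, 133 with trend and robust moderation and 131 without the null Hras GW0742 group. Positive ones, 408 over all genes (2.05%), became 265 without mock GW0742 array 1 and 244 without Hras GW0742 array 3.

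Pdk4 and Angptl4 parted here. Pdk4 stood at 12.33, 12.45 and 12.61 with GW0742 and at 6.71, 6.45 and 6.75 with DMSO in Hras cells, so that the effect was larger than in mock cells by 1.69 ± 0.12 (Hras minus mock, adjusted p = 2.71e-08). Angptl4 stood at 12.02, 12.10 and 12.11 with GW0742 and at 9.79, 9.88 and 9.55 with DMSO, and its effect was smaller (Hras minus mock -1.83 ± 0.15, adjusted p = 5.91e-07). The treated levels of Angptl4 were above those of mock cells, and the DMSO levels were higher by more. Adm (Hras minus mock 1.51 ± 0.23, adjusted p = 0.000637) and Hilpda (1.57 ± 0.08, adjusted p = 8.68e-11) had larger effects in Hras cells. Hilpda stood there at 10.27, 10.25 and 10.23 with GW0742 against 7.83, 7.88 and 7.90 with DMSO. Decr1 had a smaller effect (-1.05 ± 0.14, adjusted p = 0.000107), while for Acot1 the difference was -0.09 ± 0.12 (adjusted p = 0.852) and for Plin2 0.18 ± 0.07 (adjusted p = 0.248).

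Several sterol enzymes had a smaller effect in Hras cells. In mock cells 14 of 17 were higher, with a median of 0.33, and in Hras cells 4 of 17, with a median of 0.10. The Hras minus mock difference passed with a negative sign for 5 of them, Cyp51, Fdft1, Idi1, Lss and Msmo1, against 0.421% negative among all genes. Idi1 differed by 0.03 ± 0.08 with the ligand in Hras cells, and its Hras minus mock difference was -0.69 ± 0.11 (adjusted p = 0.00141). For Cyp51 the Hras levels were 10.95, 11.02 and 10.90 with GW0742 against 10.91, 10.81 and 10.86 with DMSO, and the Hras minus mock difference was -0.48 ± 0.08 (adjusted p = 0.00221). Insig1 followed (-0.45 ± 0.09, adjusted p = 0.00464). The carnitine genes had 5 of 7 higher in Hras cells and 0 passing differences from mock cells. Mitochondrial oxidation had 10 of 20 higher and 1 lower, and its passing differences were Acadl (positive) and Decr1 (negative). Among the falls, Skint9 stood in Hras cells at 3.57, 3.61 and 3.96 with GW0742 and at 3.64, 3.74 and 3.45 with DMSO, and the Hras minus mock difference was 1.81 ± 0.25 (adjusted p = 0.000204), with all of these levels below the lowest level in mock cells. They lay near the lowest value of the table, 2.27, so whether the ligand lowers Skint9 in Hras cells cannot be told from them.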

How the data were processed

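The values deposited by the authors are log2 expression on 24 Affymetrix arrays, processed with RMA per the submitters' processing notes. Its software version and the annotation build were not given in the sources used here. RMA brings all arrays to nearly the same distribution and would hide a shift common to most genes. Of 34760 probe sets, 21640 carried 1 gene symbol, 1321 several and 11799 none in the platform annotation. Each gene was represented by its probe set with the highest mean, which gave 19937 genes without a filter on dim genes, of which 19854 matched a RefSeq table of GRCm38.p6.

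A cell-means model of 8 groups was fitted to all 24 arrays with limma 3.58.1 in R 4.3.3 (lmFit, eBayes, 16 residual and 4.43 prior degrees of freedom), so all groups share 1 estimate of the spread. P-values are two-sided and Benjamini-Hochberg adjusted over all genes, with a threshold of 0.05. Differences are log2 ± SE with n = 3 arrays per group, array numbers are the labels' replicate numbers, and fold intervals are 95%. The effects in null and in Hras cells share no array with the wild-type mock effect. The differences of effects do contain the wild-type mock arrays, with a minus sign for that effect. Same-numbered arrays did not deviate together (correlations -0.027, 0.051 and -0.074), so the numbers were not taken as pairs.

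Named genes were the 20 largest rises and falls among passing genes without overlap, predicted transcripts left out, and members of the lists. There were 49 lists with 916 measured genes. The members and lists were chosen with earlier results of these data known, and 6 lists were added after the passing genes had been seen. Cdkn1a, Hras and Areg were not used here. Promoters span 250 bases before each start, and those of chromosome 18 were not printed. Alternatives are given in the closing section. Python 3.11.15 with pandas 2.3.3 and matplotlib 3.10.9 made the figures.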

Additional observations from a re-analysis of the deposited data

Results flagged for a closer look

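Differences of the ligand effect passed limma's test for 169 genes between genotypes (null minus wild-type, mock cells) and for 492 genes between virus states (Hras minus mock, wild-type cells). Both values are log2 differences of effects, and a positive value means a higher or less negative effect in the null or Hras cells. The named rises and falls passed for the wild-type mock effect, which enters both differences with a minus sign. Selection therefore favours smaller effects in the other cells.

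Among named rises, Pdk4 differed by -3.99 (null minus wild-type) and 1.69 (Hras minus mock), Angptl4 by -4.14 and -1.83, and Decr1 by -2.05 and -1.05, in the same order. Acot1 differed by -2.12 between genotypes. Adm differed by -1.90 and 1.51, Pla2g4d by -1.24 and 1.26, and Hilpda by -0.90 and 1.57, each larger in Hras cells. Fbp2 differed by -1.27 and -0.77. Of the sterol genes, Cyp51 differed by -0.61 and -0.48, Idi1 by -0.74 and -0.69, and Insig1 by -0.87 and -0.45.

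Among named falls, Skint9 differed by 1.60 (null minus wild-type) and 1.81 (Hras minus mock), Chil1 by 1.08 and 1.13, Serpinb3a by 1.28 and 1.32, and Stmn2 by 0.64 and 0.79. In wild-type Hras cells Serpinb3a stood at 3.51, 3.79 and 3.70 with GW0742 and at 3.64, 3.21 and 3.61 with DMSO, and Skint9 was as low there. With the lowest value of the table at 2.27, the Hras differences of both carry the fall in mock cells and do not tell whether the ligand lowers them in Hras cells. Medag differed by 1.06 between genotypes. Gabrp differed by 1.26 and 0.81, and the 0.81 lost its call when any array of the 4 groups other than wild-type Hras DMSO array 2 was left out, with adjusted p-values from 0.0589 to 0.117. Lgr5 differed by 0.61 and 0.58. Its genotype difference was lost without wild-type GW0742 array 1 (adjusted p = 0.0664), wild-type DMSO array 2 (0.0586), null GW0742 array 2 (0.0599) or null DMSO array 1 (0.0632), and its Hras difference without wild-type mock GW0742 array 1 (0.0521).

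Outside the named genes, 47 of 13120 probe sets with no gene symbol or several passed for the wild-type mock effect (35 higher, 12 lower).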

How the results depend on the processing

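The 570 calls of the wild-type mock effect ranged from 288 to 401 when 1 array was left out, the 250 rises from 147 to 194 and the 320 falls from 131 to 226. The 169 genotype differences (null minus wild-type) ranged from 114 to 162, and the 492 Hras differences (Hras minus mock) from 286 to 482. With only the arrays compared the genotype differences became 291, and with trend and robust moderation 260. For the 570 calls, other settings gave 542 with arrays centred on their medians, 573 with the replicate block, 582 with every probe set, 687 with only the arrays compared, 750 without the dimmest 40% of genes, and 753 with trend and robust moderation. Added after the data were seen, a fit without the null Hras GW0742 group gave 749, including all 570. The median SD over genes was 0.122 in that group, against 0.0647 and 0.0662 in wild-type mock cells with GW0742 and DMSO. The block shared 540 of the 570 and moved the genotype and Hras differences to 179 and 567; the numbers did not pair the arrays. Of 187 called genes among those named or listed, 110 kept the call in every alternative that included them and 0 changed sign. A late-cornified count of 3 rises became 10 with only the arrays compared, and glycolysis and hypoxia rises of 5 became 8 without dim genes or with trend and robust moderation. Skint9, near the low end of the signal range, had an SE of 0.18, against a median SE of 0.081 over all genes.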

Other observations

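Several groups were put together after the passing genes had been seen, so their counts describe those genes and support nothing further. Ribosome biogenesis genes had small rises: 17 of 45 were higher and 0 lower, 44 of 45 differences were positive, and the median was 0.18. Dkc1, the pseudouridine synthase of the box H/ACA complexes, was the single member that passed whichever array was left out (0.30 ± 0.06, adjusted p = 0.00453), and the count was 10 with arrays centred, 10, 5 and 4 without GW0742 arrays 1, 2 and 3, and 7, 2 and 9 without DMSO arrays 1, 2 and 3. Serine and one-carbon genes had 5 of 16 higher and 1 lower, with 3 higher without DMSO array 2. Phgdh, the first enzyme of serine synthesis, stood at 10.39, 10.31 and 10.37 with GW0742 and at 9.91, 9.80 and 9.70 with DMSO (0.55 ± 0.06, adjusted p = 2.65e-06). Shmt2, which makes glycine in mitochondria, rose by 0.29 ± 0.06, and the folate dehydrogenase Aldh1l1 fell by 0.70 (± 0.14). Of 32 immediate early and related genes 9 were higher (5 without GW0742 array 3, 3 without DMSO array 2), including the AP-1 member Fosl1, at 9.86, 9.71 and 9.84 with GW0742 against 9.11, 9.10 and 9.22 with DMSO (0.66 ± 0.09), and Klf11 (0.54 ± 0.08). Alcohol and aldehyde dehydrogenases had 7 of 28 higher and 2 lower, with 4 higher without GW0742 array 1 or 2 or DMSO array 1. Adh6b (0.59 ± 0.10), Adh1 (0.52 ± 0.09) and Adh7 (0.50 ± 0.10) rose whichever array was left out.

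Falls gathered in 2 other such groups. Of 25 genes known from fasting and FoxO-driven breakdown of protein and organelles 11 were lower and 0 higher, 23 differences were negative, and the median was -0.22, with 7 lower without GW0742 array 1 or DMSO array 1. Besides Fbxo32 they included its chromosome neighbour Klhl38 (-0.66 ± 0.11), Klhl24 (-0.44 ± 0.07), Pink1, a kinase of mitophagy (-0.36 ± 0.05), and Sgk1 (-0.29 ± 0.05). Branched-chain amino acid breakdown had 9 of 25 lower and 1 higher, with a median of -0.21, and 4 lower without GW0742 array 1 and 5 without GW0742 array 2 or any DMSO array. Passing whichever array was left out were Acadsb, Oxct1 and the propionate-route genes Mcee (-0.27 ± 0.06) and Mmut (-0.25 ± 0.05).

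Some neighbouring genes passed in the same direction. Among 19854 placed genes, 14 runs of adjacent genes rose (31 genes) and 8 runs fell (16 genes). How many such runs the 250 rises and 320 falls would give if scattered was not tested, so these counts show no clustering. The rises included Acot2, Acot1 and Acot4 on chromosome 12, Pla2g4a and Ptgs2 on chromosome 1, Gjb2 and Gjb6 on chromosome 14 and Adh7 and Adh1 on chromosome 3. The falls included Crnn and Flg2 on chromosome 3 and Fbxo32 and Klhl38 on chromosome 15. Some are close paralogs whose probes may share signal.

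Probe sets for microRNA hairpins or host genes were looked at after their values were seen. They measure the precursor or host and not the mature strand. Mir99ahg, the host of miR-99a, let-7c and miR-125b, stood at 9.06, 9.32 and 9.22 with GW0742 and at 9.57, 9.74 and 9.70 with DMSO (-0.47 ± 0.11, adjusted p = 0.0185). The call was lost without GW0742 array 1 (0.131) or 3 (0.0562) or DMSO array 2 (0.103) or 3 (0.0715). Mir181a-1 stood at 4.48, 4.32 and 4.41 with GW0742 and at 4.74, 5.04 and 4.86 with DMSO (-0.48 ± 0.11, adjusted p = 0.0205), and was lost without GW0742 array 2 (0.102) or 3 (0.0689) or DMSO array 2 (0.153) or 3 (0.0616). Mir181a-2, whose hairpin yields the same mature miR-181a-5p, had a higher level (mean 6.24 with GW0742 and 6.06 with DMSO) and the opposite sign, 0.18 ± 0.13, and did not pass. In the Mir99ahg host, Mir125b-2 passed (-0.34 ± 0.09, adjusted p = 0.0464) with overlapping arrays, and was lost without GW0742 array 1 (0.301) or 3 (0.167) or DMSO array 1 (0.190) or 2 (0.183). Mir125b-1, the other hairpin of miR-125b-5p, did not pass (-0.20 ± 0.13). The hairpin Mir99a of the same host differed by -0.39 ± 0.13 (adjusted p = 0.129) and Mirlet7c-1 by -0.48 ± 0.17 (adjusted p = 0.160). The mature sequences from RefSeq are shown with the seed, bases 2 to 8, in capitals, and they share no seed.
mmu-miR-181a-5p: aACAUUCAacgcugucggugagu
mmu-miR-125b-5p: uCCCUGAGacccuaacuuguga
mmu-miR-99a-5p: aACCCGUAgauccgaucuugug
mmu-let-7c-5p: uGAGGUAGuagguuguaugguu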
